A study of Mus musculus with 4 samples.

Results

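The regions described here are 589 stretches of intronic DNA in mouse liver at which called peaks of the glucocorticoid receptor (GR) and of E2A lay on top of each other. Members were selected on the measured peak positions themselves. Peaks of both GR replicates that shared at least 1 bp were merged, peaks of both E2A replicates were merged in the same way, and a merged GR region was kept when it was under 1500 bp wide, touched a merged E2A region by 1 bp or more, held no GR peak annotated as promoter and had its first GR peak in an intron. This left 589 of 8795 merged GR regions, and there were 4783 merged E2A regions. GR and E2A ChIP-Seq had been performed on livers of male C57BL/6 mice with the genotype E47+/+, fed a chow diet and labelled untreated, with 2 biological replicates for each antibody and 4 libraries in all. The methods give an age of 10 to 16 weeks and 8 µg of antibody per ChIP, and the labels a collection time of ZT 10, which is 10 h after lights on. The genotype fields give E47+/+ for all 4 libraries, so by these fields no library of E47 mutants enters these values. The paper says that both antibodies were used on the same livers, so GR and E2A libraries are not separate sets of animals and their calls are not independent of each other. The sources do not say which libraries share a liver, or whether a library came from 1 mouse or from pooled mice. The free-text descriptions of both E2A samples name a GR ChIP, and that of E2A replicate 2 names E47-/- mice, whereas their titles, antibody and genotype fields name E2A and E47+/+ and were followed here. The description of the study's peak tables calls the livers Dex-treated and the labels call them untreated, and this was not resolved.

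GR is a nuclear receptor that moves to the nucleus when it binds glucocorticoid hormone, and binds a palindromic DNA sequence called the glucocorticoid response element (GRE) or attaches to other DNA-bound factors. E2A is the product of the Tcf3 gene, made as the splice forms E12 and E47, basic helix-loop-helix proteins best known from B and T cell development that bind as dimers to the E-box CANNTG. Introns, and first introns above all, hold many enhancers, and in hepatocytes such enhancers are commonly occupied by C/EBP, HNF4, FOXA and HNF6 proteins.

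The study asked whether GR and E2A occupy the same regulatory DNA, and the sequences below show what such intronic DNA looks like. All are from the RefSeq copy of GRCm38, which has the same primary chromosomes as the mm10 build of the peak lists. Sequences of 1 chromosome are not printed. Of the remaining members called in all 4 libraries, 5 held a GRE with at most 1 mismatch to its consensus in their central 200 bp. They are shown because each has a near-complete GRE in a region called in every library. They were not chosen for an E-box, and a GRE concerns the binding of GR alone. The 15 bases of the GRE are in capitals, with 20 bases of flank on each side, on the plus strand, and the name is that of the nearest gene.

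E030018B13Rik (chr7:63897069-63897123, 0 mismatches): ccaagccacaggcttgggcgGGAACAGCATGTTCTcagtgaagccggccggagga
Atoh8 (chr6:72216976-72217030, 1 mismatch): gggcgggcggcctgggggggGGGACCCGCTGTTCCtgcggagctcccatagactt
Ccnd3 (chr17:47508110-47508164, 1 mismatch): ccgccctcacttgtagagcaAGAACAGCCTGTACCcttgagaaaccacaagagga
Runx1 (chr16:92611584-92611638, 1 mismatch): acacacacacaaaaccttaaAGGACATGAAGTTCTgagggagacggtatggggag
Ddc (chr11:11844603-11844657, 1 mismatch): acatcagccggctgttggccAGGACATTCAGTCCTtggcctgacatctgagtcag

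The first of these lies in intron 1 of Klf13, a zinc finger factor, and its nearest start site is that of E030018B13Rik. Here GR replicate 1 had a peak from 63896710 to 63897468 and GR replicate 2 from 63896707 to 63897559, E2A replicate 1 from 63896816 to 63897200 and E2A replicate 2 from 63896696 to 63897159, so the GRE at 63897089 to 63897103 was under both E2A peaks. The Ddc region, in intron 7 of the gene of DOPA decarboxylase, had its GRE under both E2A peaks as well (11844501 to 11844784 and 11844436 to 11844708). At Runx1, a Runt-family factor, the GRE at 92611604 to 92611618 was under the merged GR region and ended before both E2A peaks began, at 92611713 and 92611753. Over all 124 members with a GRE, the best match lay wholly inside the merged E2A region in 112 (90.3%, 95% Wilson interval 83.8 to 94.4%). The selection makes this likely, since GREs were sought only at the centre of GR regions chosen for meeting E2A. No share for other positions of the windows was computed, so nothing is read from this one.

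Another 2 members held a GRE with 0 mismatches and were called in 3 of 4 libraries. They are printed in the same way, chosen after their values were seen, so that all 3 complete matches are on view.

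Per1 (chr11:69097056-69097110): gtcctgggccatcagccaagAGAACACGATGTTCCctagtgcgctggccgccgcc
Hao1 (chr2:134544442-134544496): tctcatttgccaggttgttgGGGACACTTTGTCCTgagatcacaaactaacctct

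The Per1 match lies in intron 1 of this clock gene, a well-known glucocorticoid target, and was under the peak of E2A replicate 1 (69096730 to 69097179), while E2A replicate 2 had no call there. The Hao1 match lies in intron 2 of the gene of hydroxyacid oxidase 1, a peroxisomal enzyme of hepatocytes, and ended just before the peak of E2A replicate 2 began at 134544482. E2A replicate 1 had no call at Hao1.

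Most members did not look like this. The next 3 windows are the central 200 bp of the members with the longest stretch covered by all 4 libraries on the printed chromosomes. A window is centred on the merged GR region and not on the common stretch, so it can reach outside some of the 4 peaks. Capitals mark every match to a GRE, C/EBP, HNF6 or CANNTG sequence.

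Tnfrsf8 (chr4:145281076-145281275): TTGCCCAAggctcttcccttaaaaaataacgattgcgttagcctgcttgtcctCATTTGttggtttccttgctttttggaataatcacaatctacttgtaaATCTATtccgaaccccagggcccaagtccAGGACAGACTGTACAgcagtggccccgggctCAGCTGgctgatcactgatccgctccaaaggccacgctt
Tex14 (chr11:87448776-87448975): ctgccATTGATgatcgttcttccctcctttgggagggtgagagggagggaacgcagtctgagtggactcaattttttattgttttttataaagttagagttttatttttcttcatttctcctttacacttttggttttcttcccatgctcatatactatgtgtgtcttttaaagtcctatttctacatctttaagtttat
Myom1 (chr17:71088855-71089054): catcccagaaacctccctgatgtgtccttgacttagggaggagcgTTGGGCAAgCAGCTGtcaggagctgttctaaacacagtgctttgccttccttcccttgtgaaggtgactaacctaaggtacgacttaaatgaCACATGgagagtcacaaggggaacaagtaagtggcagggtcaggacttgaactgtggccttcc

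The Tnfrsf8 window holds a C/EBP match, an HNF6 match, an E-box CAGCTG and a GRE with 2 mismatches within 200 bp. The Tex14 window holds 1 HNF6 match and no E-box or GRE. All matches of both windows lay inside the peaks of all 4 libraries. The Myom1 window has a C/EBP match 1 base away from a CAGCTG E-box, and a further E-box, but all 3 lay before the E2A peaks began, at 71089035 in replicate 1 and 71089011 in replicate 2, and under GR peaks only.

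Members differed in how many libraries called them. GR replicate 1 had a peak in 436 members (74.0%), GR replicate 2 in 422 (71.6%), E2A replicate 1 in 494 (83.9%) and E2A replicate 2 in 254 (43.1%). The E2A replicate 2 list is the shortest of the 4, with 1892 peaks, and E2A replicate 1 has 4028, GR replicate 1 has 4291 and GR replicate 2 has 7334. Peaks in introns made up 18.1 to 31.4% of each list. The peak lists used here hold called positions only, so the reads behind a peak cannot be read from them, and the intervals given here cover counting error only.

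By the number of libraries, 92 members (15.6%) were called in all 4, 244 (41.4%) in 3 and 253 (43.0%) in 2, which is the fewest the selection allows. Both GR replicates called 269 members (45.7%), and the background for this is 30.0% of the 8548 merged GR regions of any place under 1500 bp. Both E2A replicates called 159 members (27.0%), and the background for this is 22.8% of the 4717 merged E2A regions under 1500 bp. The largest group, 143 members, was called in both GR replicates and in E2A replicate 1 alone. E2A replicate 1 had peaks together with GR replicate 1 in 387 members and with GR replicate 2 in 342. E2A replicate 2 had peaks together with GR replicate 1 in 179 members and with GR replicate 2 in 201. These calls entered the selection, since a region had more chance of an overlap when more libraries called it, and they are given as a description. For the same reason it is only described that 24.3% of the 1393 intronic GR regions without E2A were called in both GR replicates, and 52.3% of the 562 intergenic regions that GR and E2A shared, and that 11.6% of the 708 intronic E2A regions without GR were called in both E2A replicates.

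**Figure D1:**
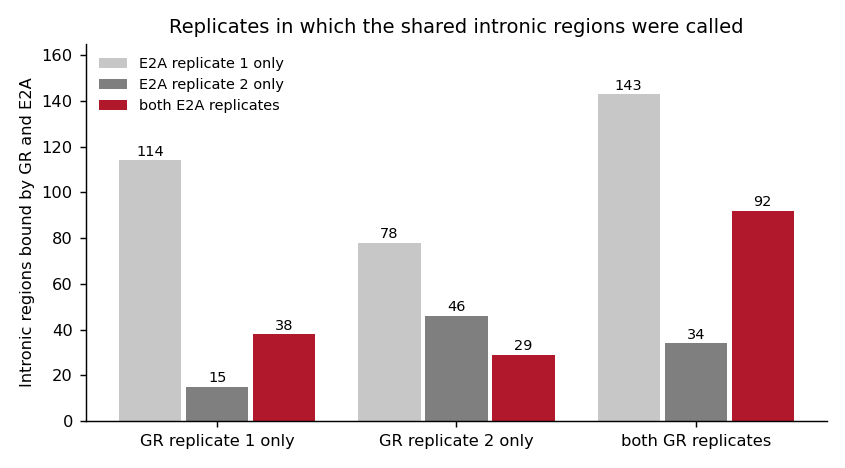
Number of intronic regions bound by GR and E2A (y axis, 589 in all) by the GR replicates that called them (x axis) and the E2A replicates that called them (bar colour). The tallest bar is 143 regions called in both GR replicates and E2A replicate 1 only, and 92 regions were called in all 4 libraries.

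Among all merged GR regions under 1500 bp, 29.5% shared at least 1 bp with E2A (2523 of 8548), and among intronic ones without a promoter peak it was 29.7% (589 of 1982). These shares are what the selection counted, and nothing is read from them.

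The members were compact. Their median width was 420 bp (quartiles 326 and 585, range 250 to 1451), and the E2A regions that met them had a median of 394 bp. The shared stretch had a median of 311 bp and covered a median of 99.1% of the shorter region, and in 284 members (48.2%) the shorter region was wholly covered. The centres of both regions lay a median of 72 bp apart (quartiles 31 and 132), and within 100 bp of each other in 371 members (63.0%). For the 92 members called in all 4 libraries the median distance between centres was 51 bp, and for those called in 2 it was 78 bp. Several E2A regions met the same member in 5 cases, and in 4 an E2A peak was annotated as promoter.

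**Figure D2:**
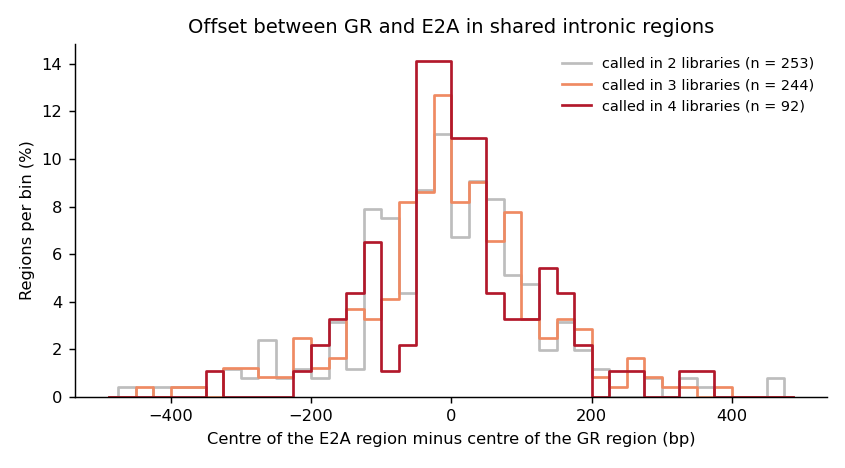
Position of the E2A region relative to the GR region in each member (x axis, bp between centres, bins of 25 bp) as a percentage of regions called in 2, 3 or 4 libraries (y axis). All 3 lines peak near 0, and 8 of 589 members lie beyond 500 bp and are not drawn.

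The peaks of the members were wider than those of regions that only one factor had. In GR replicate 1 the peaks in members had a median width of 397.5 bp, and those in intronic GR regions without E2A 333.5 bp. In GR replicate 2 the medians were 404 and 341 bp. E2A peaks in members had medians of 384.5 bp in replicate 1 and 347 bp in replicate 2, and those in intronic E2A regions without GR had 334 and 302 bp. The order was thus the same in all 4 libraries, but a wider peak is also more likely to meet another, so the widths belong to the selection and were not tested.

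The limits of the selection were as follows. The widest member, 1451 bp, lay in Mtss1 (chr15:58998966-59000416), and the narrowest of 9 shared intronic regions left out by their width, 1583 bp, was nearest to LOC105242399. The member with the smallest overlap shared 11 bp with E2A and lay in intron 21 of Myom1 (chr17:71090620-71090875), and 4 members shared under 50 bp. The closest region that missed, 17 bp from an E2A region, lay in Myom1 as well (chr17:71090051-71090304), and 9 intronic GR regions without E2A were within 200 bp of one.

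Sequence was not used to choose the members, so their motifs could be tested. A total of 13 consensus motifs was counted on both strands in the central 200 bp of each region. These were the GRE and the nuclear receptor repeat DR1 with up to 2 mismatches, C/EBP TTGCNNAA, HNF4 CAAAGTNCA, FOX TGTTTAC, HNF6 ATNGAT, STAT5 TTCNNNGAA, AP-1 TGANTCA and the E-box CANNTG. The E-box core CAGGTG was also counted alone, as were the core CAGCTG, the core CACGTG and the core CAGATG, all of which CANNTG includes. Differences between shares were tested by Fisher's exact test (two-sided), and p-values were adjusted by the Benjamini-Hochberg method over 52 tests in 4 comparisons. Regions are not biological replicates, so these p-values concern these lists of regions and not the variation between mice.

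A GRE was found in 124 of 589 members (21.1%, 95% Wilson interval 17.9 to 24.5%), with 0 mismatches in 3, 1 in 19 and 2 in 102. It was less frequent than in the 1393 intronic GR regions without E2A, of which 32.3% held one (29.9 to 34.8%), an odds ratio of 0.559 (95% interval 0.441 to 0.705, adjusted exact p = 4.3e-06). It was more frequent than in the 708 intronic E2A regions without GR (8.62%, odds ratio 2.83, interval 2.01 to 4.00, adjusted exact p = 4.9e-09). Without E2A replicate 1 this second difference had an adjusted exact p of 0.0509 at an odds ratio of 2.17. When at most 1 mismatch was allowed, a GRE was left in 22 members and in 1 of the 708 E2A regions (odds ratio 27.4, 4.40 to 1134), and the odds ratio of members to GR regions without E2A was 0.293 (0.177 to 0.465). The members thus held the GRE at a share between those of both sets with a single factor. Members were selected for a GR peak and the E2A regions for having none. Windows were centred on the GR region in members and on the E2A region in the latter. More GREs in members than in E2A regions are therefore likely from the selection, and the part of the centring was not tested.

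The gap to GR regions without E2A was there at either level of GR support. Of members called in 1 GR replicate, 12.8% held a GRE (9.59 to 16.9%), against 27.5% of regions without E2A called in 1 GR replicate (24.9 to 30.3%). Of members called in both GR replicates, 30.9% held one (25.6 to 36.6%), against 47.2% (41.9 to 52.5%). The test within regions called in both GR replicates gave an odds ratio of 0.500 (0.352 to 0.707, adjusted exact p = 5.7e-04). In windows matched in bins of 5% GC content the Mantel-Haenszel odds ratio was 0.569. Leaving out any of the 4 libraries gave odds ratios from 0.488 to 0.617. Centring the window on the stretch shared with E2A moved 471 of the windows, and 25 members lost a GRE while 25 others gained one, so the share stayed at 124 of 589. Members were also wider (median 420 bp) than intronic GR regions without E2A (348 bp), so a 200 bp window covered less of them. The part of width in the gap was not tested.

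C/EBP matches went the other way. The motif of the C/EBP family, leucine zipper factors abundant in hepatocytes, was in 126 members (21.4%, 18.3 to 24.9%) and in 15.5% of intronic GR regions without E2A (13.7 to 17.5%), an odds ratio of 1.48 (1.15 to 1.91, adjusted exact p = 0.0116). This difference was lost when GR replicate 1 (odds ratio 1.37, adjusted exact p = 0.166), GR replicate 2 (1.40, 0.125) or E2A replicate 2 (1.31, 0.15) was left out, and within regions called in both GR replicates (21.9% against 18.9%, odds ratio 1.21, adjusted exact p = 0.697). Intronic E2A regions without GR held the motif at 21.8%, and the odds ratio of members to these was 0.979 (0.743 to 1.29). The other 11 motifs did not pass the test between members and intronic GR regions without E2A. HNF6 matches were in 25.3% and 21.2% (odds ratio 1.26, 0.998 to 1.59, adjusted exact p = 0.157), and passed it only in bins of GC content (Mantel-Haenszel odds ratio 1.36).

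The E-box, the motif that E2A itself recognises, did not separate members from GR regions without E2A. CANNTG was in 393 members (66.7%, 62.8 to 70.4%) and in 70.2% of intronic GR regions without E2A (odds ratio 0.851, 0.689 to 1.05, adjusted exact p = 0.354). In intronic E2A regions without GR it was in 71.3% (odds ratio 0.806, 0.632 to 1.03, adjusted exact p = 0.245). None of the 4 E-box cores passed the test against either set, but without E2A replicate 1 CAGATG was less frequent in members than in intronic E2A regions without GR (odds ratio 0.399, adjusted exact p = 0.00429; with all libraries 0.917, adjusted exact p = 0.841). CANNTG was also in 66.5% of flanking windows. Windows of members were centred on the GR region, and those of E2A regions without GR on the E2A region. When centred on the stretch shared with E2A, CANNTG was in 403 members, CAGGTG in 82 (from 72) and CAGATG in 87 (from 78). CAGCTG went from 79 to 78 and CACGTG from 32 to 29. Of the 124 members with a GRE, 62.1% also held a CANNTG, and of the 465 without it 68.0% did (odds ratio 0.773, 0.503 to 1.20, two-sided Fisher's exact p = 0.238).

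Against intronic E2A regions without GR, 3 motifs passed the test, the GRE and STAT5 in one direction and FOX in the other. STAT5 matches, which growth hormone and cytokine signalling act through, were in 10.4% of members and 5.93% of the E2A regions (odds ratio 1.83, 1.20 to 2.83, adjusted exact p = 0.0219). This call was lost without GR replicate 2 (1.40, adjusted exact p = 0.269) and without E2A replicate 1 (1.41, 0.69). FOX matches, the motif of FOXA pioneer factors, were in 5.60% of members and 9.32% of the E2A regions (odds ratio 0.578, 0.363 to 0.905, adjusted exact p = 0.0474), and this call was lost when any of the 4 libraries was left out (adjusted exact p from 0.0702 to 0.734).

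No motif set the members apart from their intergenic counterparts. Between members and the 562 intergenic regions bound by GR and E2A, 0 of 13 motifs passed the adjusted test and 1, CAGGTG, had an unadjusted exact p under 0.05 (12.2% against 16.5%, odds ratio 0.703, 0.496 to 0.992, p = 0.0432). The GRE was in 20.3% of the intergenic regions (odds ratio 1.05, 0.780 to 1.41) and the C/EBP motif in 20.5% (1.06, 0.788 to 1.42), and these intervals leave room for a difference of either sign.

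In comparison with 1091 flanking windows, each 200 bp long, starting 500 bp from a member's edge and free of peaks, 8 of 13 motifs were more frequent in members and 0 less frequent. Windows were pooled for this test, which did not use that each flank belongs to a member. The HNF4 motif was in 5.26% of members and 0.642% of flanks (odds ratio 8.59, 3.68 to 23.3, adjusted exact p = 6.2e-08). For C/EBP the shares were 21.4% and 6.69% (3.79, 2.76 to 5.24, adjusted exact p = 3.2e-16), for DR1 9.85% and 3.85% (2.73, 1.77 to 4.22), for FOX 5.60% and 2.20% (2.64, 1.495 to 4.71) and for the GRE 21.1% and 11.6% (2.02, 1.53 to 2.68). Members called in 1 GR replicate held a GRE in 12.8% (9.59 to 16.9%), near the share of flanks. Those called in both GR replicates held it in 30.9% (25.6 to 36.6%), and neither group was tested against flanks by itself. STAT5 (odds ratio 1.61, adjusted exact p = 0.0459), CAGCTG (1.53, 0.0378) and CACGTG (2.03, 0.0342) passed narrowly. CANNTG as a whole did not differ by this test (odds ratio 1.01, 0.811 to 1.25), nor did HNF6 (1.13) or AP-1 (1.18). Members had a median GC content of 49.0% and flanks 46.5%, and within GC bins CAGCTG (Mantel-Haenszel odds ratio 1.27) and CACGTG (1.47) no longer passed, while HNF6 passed as more frequent in members (1.43) and CAGGTG as less frequent (0.676). Without E2A replicate 1 the CAGCTG odds ratio was 0.962, and the calls of the GRE (1.66, adjusted exact p = 0.124), FOX (2.62, 0.124), STAT5 (1.59, 0.329) and CACGTG (1.24, 0.877) were lost as well. With at most 1 mismatch the DR1 call was lost (2.10, adjusted exact p = 0.354).

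**Figure D3:**
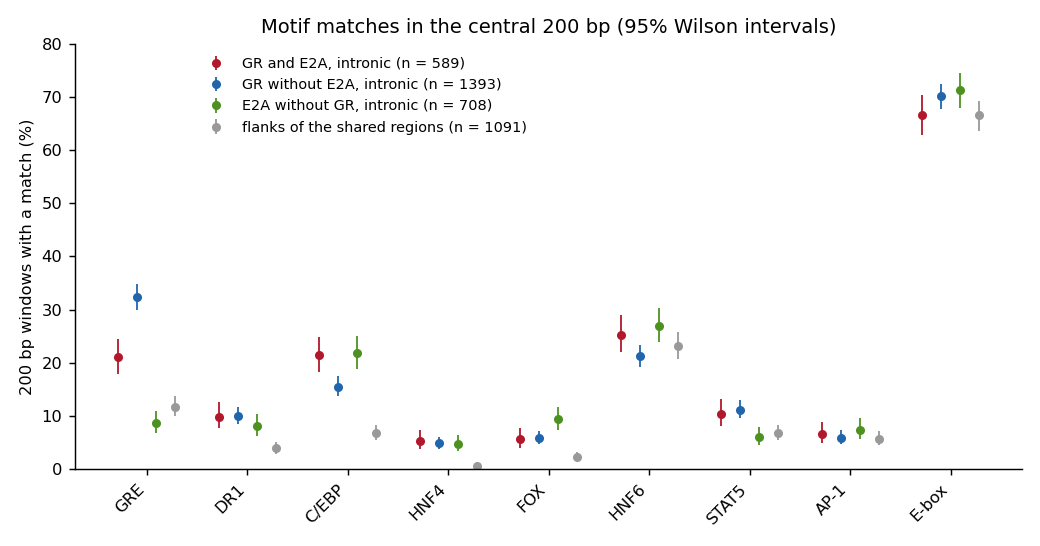
Percentage of 200 bp windows with a match to the 8 factor motifs and the E-box CANNTG (y axis, motifs along the x axis) in the 589 members, 1393 intronic GR regions without E2A, 708 intronic E2A regions without GR and 1091 flanks of the members. Points are shares and bars 95% Wilson intervals; the GRE share of members (21.1%) lies between those of the GR (32.3%) and E2A (8.62%) regions, and CANNTG is in 66.5 to 71.3% of the 4 sets.

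Matches were also located along the regions. Counted per 50 bp of sequence, C/EBP matches in members stood at 6.03 per 100 regions in the central 200 bp and 2.09 beyond 600 bp from the centre, a ratio of 2.88, and the ratio in GR regions without E2A was 1.95. GRE matches stood at 6.32 per 100 members in the centre and 3.52 outside (ratio 1.80), and at 9.39 and 3.40 per 100 GR regions without E2A (2.76). The FOX ratios were 2.48 and 2.03. CANNTG stood at 27.7 in the centre and 27.9 outside in members (ratio 0.994), and at 31.1 and 28.5 in GR regions without E2A (1.09). These ratios are descriptions with no test.

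**Figure D4:**
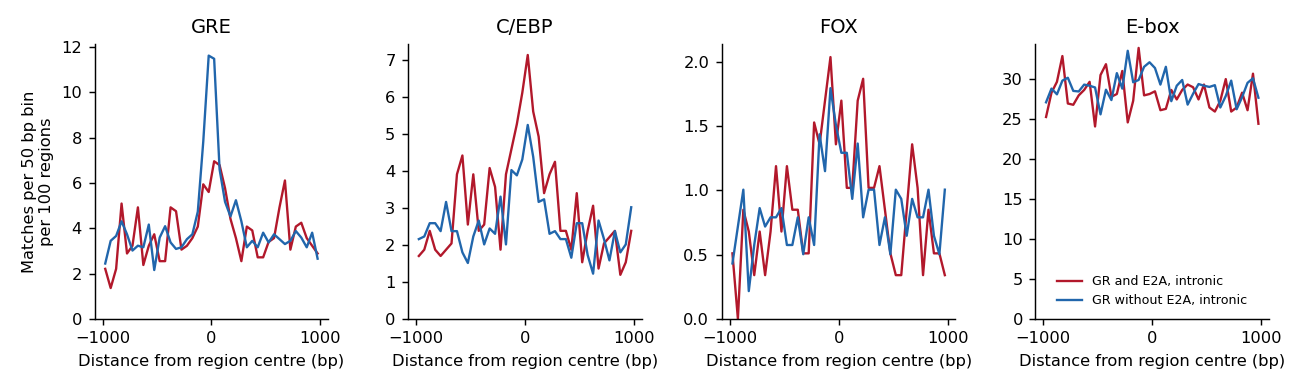
Motif matches per 50 bp bin per 100 regions (y axes, each with its own scale) by distance from the region centre (x axes, bp) in intronic regions with GR and E2A and with GR only. GRE and C/EBP matches peak at the centre in both sets, the GRE higher without E2A (9.39 against 6.32 per 100 regions in the central 200 bp), and CANNTG has centre to outside ratios of 0.994 with E2A and 1.09 without.

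No single factor motif was common to the members. None of the 8 factor motifs other than the E-boxes was in 188 members (31.9%), exactly 1 kind was in 236 (40.1%), 2 kinds in 118 and 3 or more kinds in the rest. Among intronic GR regions without E2A 31.0% held none.

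The rule used that a member lies in an intron, but not in which. The first intron held 276 members (46.9%, 42.9 to 50.9%), the second 104, the third 60 and a later one 149. Of intronic GR regions without E2A 44.9% were in the first intron (odds ratio 1.08, 0.886 to 1.32, adjusted exact p = 0.689 over 3 position tests). Members lay a median of 12440 bp from the nearest start site and the other regions 10710 bp, and 45.2% and 48.8% were within 10 kb (odds ratio 0.864, 0.708 to 1.05, adjusted exact p = 0.421). The gene whose intron held the region was also the nearest gene in 455 of 553 members (82.3%) and 1097 of 1343 other regions (81.7%, odds ratio 1.04, adjusted exact p = 0.793). The 36 members in transcripts with no gene ID were left out of this last test. Naming a member by its nearest gene therefore gave another gene than its host in 98 of 553.

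Some members lay in sequence that occurs more than once in the genome, where reads are hard to place. The central 50 bp of 33 members had a further copy. Of these, 17 lay in 1 stretch of chromosome 5 (chr5:15477812-15698345) that held 24 members in all, nearest to Gm21190, LOC105242399 and genes of the Speer family, which are expressed in testis. A further 4 of 5 members in Tex14, a gene of germ cell bridges, and the Serpina12 member, with 285 copies of its centre, were of this kind. Leaving out such regions, an alternative added after the values were seen, ended 1 motif call, that of FOX against intronic E2A regions without GR (odds ratio 0.625, adjusted exact p = 0.164).

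The 589 members had 484 nearest genes, of which 413 had 1 member, 51 had 2 and 20 had 3 or more. Gm21190 led with 10, LOC105242399 and Tex14 had 5 each, and Ergic1, Mtss1 and Zmiz1 had 4 each. The genes with 3 were Ackr2, Bphl, Chd9, Crcp, Fto, Igf1, Klf9, Mir122, Nr1i2, Sh3pxd2a, Slc38a4, Speer4cos, Speer4d and Zbtb16. Several of these have known roles in liver. Igf1 encodes the hormone through which growth hormone acts on growth, Nr1i2 the xenobiotic receptor PXR, Slc38a4 an amino acid transporter, Klf9 and Zbtb16 zinc finger factors induced by glucocorticoids, and Mir122 the most abundant microRNA of hepatocytes. Igf1 and Tex14 were the genes of this group whose members were all called in 4 libraries, 3 of 3 and 5 of 5.

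The 10 members with the longest stretch covered by all 4 libraries were led by a region in intron 2 of Ctif on chromosome 18 (599 bp), nearest to Gm10532. They included Tnfrsf8 (intron 10, 540 bp), which encodes CD30, 2 regions in intron 2 of Tex14 (513 and 452 bp), Lipg (intron 1, 500 bp), which encodes endothelial lipase, and Myom1 (intron 20, 485 bp), a gene of the muscle sarcomere. The others were Rrbp1 (intron 1, 476 bp), a ribosome-binding protein of the endoplasmic reticulum, Mlxipl (intron 1, 467 bp), a region in Zbtb20 nearest to Gm15713 (463 bp) and Stard13 (intron 1, 461 bp). Tnfrsf8, Tex14 and Myom1 are not typical hepatocyte genes. A region is named here by the gene it lies in or nearest to, and whether it acts on that gene was not measured.

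Members were then counted at genes of 16 lists for liver metabolism, hormone signalling, hepatocyte factors and other cell types. Of 260 listed genes, 192 had a GR region, and 48 of these (25.0%) had a member. Over all 5672 genes with a GR region, 536 (9.45%) had one. The listed genes had a median of 3 GR regions each and all genes a median of 1, and the part of this in the difference was not tested.

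Genes of glucose handling had 6 members at 5 of 19 genes with a GR region. Among these were Fbp1, the fructose-1,6-bisphosphatase of gluconeogenesis, Pfkfb3, which sets fructose 2,6-bisphosphate, Slc2a2, the glucose transporter GLUT2, and Ppp1r3b, which brings protein phosphatase 1 to glycogen. The Pfkfb3 region in intron 1 (chr2:11534838-11535836) was called in all 4 libraries, but the stretch common to all was 49 bp. Both Fbp1 regions, in intron 1, and those of Slc2a2 and Ppp1r3b were called by 1 GR and 1 E2A library each.

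Insulin and FoxO genes had 8 members at 6 of 14 genes, and 4 of the 8 were called in all 4 libraries. Over all members it was 92 of 589 (15.6%), and 3 of the 4 were regions of Igf1. Foxo1 and Foxo3 encode the transcription factors that insulin keeps out of the nucleus. The Foxo3 region in intron 2 (chr10:42274095-42274796) had GR peaks from 42274095 to 42274517 and 42274108 to 42274796 and E2A peaks from 42274125 to 42274393 and 42274198 to 42274448, and its window held no match to any of the 13 motifs. That window (chr10:42274345-42274544) reached past the ends of both E2A peaks, and most of both E2A peaks lay before its start and outside it. All 3 Igf1 members lay in intron 3, at chr10:87885452-87886143, chr10:87897305-87897802 and chr10:87906174-87907243, which is 24341, 36194 and 45063 bp from the start site. The stretches common to all 4 libraries were 385, 260 and 389 bp. Foxo1 (intron 1, chr3:52290789-52291190), Trib1 (intron 2, chr15:59653911-59654194) and a region nearest to Irs2, the main insulin receptor substrate of liver (chr8:11009443-11009915), were called in 3 libraries. A member nearest to Grb14, an adaptor that restrains the insulin receptor, lay in intron 6 of Cobll1 and was called in 2.

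The 3 Igf1 windows are printed because this gene had every member called in 4 libraries, and they show how unlike each other members of 1 intron were. They were chosen after their values were seen. Capitals mark matches to the 8 factor motifs and CANNTG.

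Igf1 (chr10:87885697-87885896): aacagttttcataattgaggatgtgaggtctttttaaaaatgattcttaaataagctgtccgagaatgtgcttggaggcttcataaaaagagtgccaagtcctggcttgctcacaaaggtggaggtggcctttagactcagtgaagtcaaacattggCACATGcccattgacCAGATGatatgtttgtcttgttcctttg
Igf1 (chr10:87897453-87897652): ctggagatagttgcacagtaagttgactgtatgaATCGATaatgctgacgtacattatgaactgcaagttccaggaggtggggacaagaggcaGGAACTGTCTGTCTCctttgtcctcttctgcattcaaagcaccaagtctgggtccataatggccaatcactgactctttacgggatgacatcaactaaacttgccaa
Igf1 (chr10:87906608-87906807): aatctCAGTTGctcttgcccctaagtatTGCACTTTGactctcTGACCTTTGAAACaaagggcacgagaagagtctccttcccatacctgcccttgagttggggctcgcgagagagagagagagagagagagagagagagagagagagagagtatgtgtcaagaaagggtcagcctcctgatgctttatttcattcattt

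The first holds E-boxes alone, which lay past the end of the peak of E2A replicate 1 (87885845) and inside the peaks of the other 3 libraries. The second holds a GRE with 2 mismatches and an HNF6 match, both inside all 4 peaks. The third holds an HNF4 match, a DR1 with 2 mismatches and an E-box, and these lay inside the peaks of GR replicate 2 and E2A replicate 2 and before those of GR replicate 1 (from 87906711) and E2A replicate 1 (from 87906748).

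Genes of fatty acid and triglyceride metabolism had 9 members at 8 of 31 genes. Mlxipl encodes ChREBP, the glucose-sensing helix-loop-helix factor of lipogenesis, and Srebf1 the insulin-driven one. The Mlxipl region in intron 1 (chr5:135107950-135108555), 1059 bp from the start site, had GR peaks from 135108036 to 135108551 and 135107950 to 135108555 and E2A peaks from 135107916 to 135108569 and 135107882 to 135108502. A further Mlxipl member in the same intron (chr5:135101047-135101298) was called in GR replicate 2 and both E2A replicates. The Srebf1 region in intron 1 (chr11:60210195-60210684), nearest to Mir6922, and the Agpat2 region in intron 1 (chr2:26600398-26601108) were called in all 4 libraries with common stretches of 256 and 316 bp, and Agpat2 encodes an acyltransferase of triglyceride synthesis. Ppara, the fasting receptor of fat oxidation (intron 2, chr15:85771258-85772291), and Cd36, a fatty acid carrier (intron 1, chr5:17863029-17863409), were called in 3 libraries. Members at Acaca, Acsl1 and Gpam, enzymes of fatty acid synthesis, activation and esterification, were called in 2. The windows of Mlxipl, Srebf1 and Agpat2 are the fat-metabolism members called in all 4 libraries, with the same marks and the same reservation.

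Mlxipl (chr5:135108152-135108351): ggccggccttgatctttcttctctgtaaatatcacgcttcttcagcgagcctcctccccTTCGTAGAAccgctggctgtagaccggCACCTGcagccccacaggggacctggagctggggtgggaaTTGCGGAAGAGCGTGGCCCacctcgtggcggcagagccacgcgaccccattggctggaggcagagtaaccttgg
Srebf1 (chr11:60210339-60210538): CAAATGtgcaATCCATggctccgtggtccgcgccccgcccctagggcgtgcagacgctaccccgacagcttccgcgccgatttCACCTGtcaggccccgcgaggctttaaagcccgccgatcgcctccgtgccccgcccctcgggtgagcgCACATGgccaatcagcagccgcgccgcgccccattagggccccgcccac
Agpat2 (chr2:26600653-26600852): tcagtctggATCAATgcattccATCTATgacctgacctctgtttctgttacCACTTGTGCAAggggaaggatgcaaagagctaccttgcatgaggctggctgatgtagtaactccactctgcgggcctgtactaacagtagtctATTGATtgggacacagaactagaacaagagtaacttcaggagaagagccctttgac

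The Mlxipl window holds a STAT5 match, an E-box of the CAGGTG core and a C/EBP match that runs into a GRE with 2 mismatches. The Srebf1 window holds 3 E-boxes and 1 HNF6 match, and the Agpat2 window a C/EBP match that overlaps an E-box and 3 HNF6 matches. The matches in the Mlxipl and Srebf1 windows lay inside all 4 peaks. In the Agpat2 window the E-box and 2 of the HNF6 matches were not, or not wholly, inside the peak of E2A replicate 2, which began at 26600707.

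Genes of cholesterol and bile acid metabolism had 6 members at 5 of 20 genes, none called in all 4 libraries. Of all 589 members 92 (15.6%) were called in all 4, so nothing is read from the lack of one among 6. Cyp27a1, the sterol 27-hydroxylase (intron 1, chr1:74721210-74722084), Srebf2, the regulator of cholesterol synthesis (intron 11, chr15:82183491-82184104), and 1 of 2 regions in intron 7 of Nr1h4, which encodes the bile acid receptor FXR (chr10:89458818-89459174), were called in 3. A member in intron 9 of Scarb1, the HDL receptor, was called in 2. The Cyp27a1 and Srebf2 windows each held a GRE with 2 mismatches.

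Clock genes had 8 members at 5 of 15 genes, and 5 of the 8 were called in 3 libraries, beside 244 of all 589 members (41.4%). Per1 (intron 1, chr11:69096602-69097587), described above, Per2 (intron 9, chr1:91436177-91436959), both repressors of the clock, Nr1d1, which encodes REV-ERBa (intron 1, chr11:98773646-98774258), and Hlf, a PAR leucine zipper factor (intron 3, chr11:90355248-90355719), were called by both GR replicates and E2A replicate 1. A member of Nfil3 (chr13:52976591-52977165) was called by GR replicate 2 and both E2A replicates. The Nr1d1 window held 2 CACGTG E-boxes, the core that CLOCK and BMAL1 recognise. GRE matches with 2 mismatches were in both Per2 members, the other Hlf member (chr11:90382422-90382724) and the other Nfil3 member (chr13:52974796-52975130).

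Classic GR targets had 8 members at 4 of 16 genes. Zbtb16 had 3, of which that in intron 2 (chr9:48744822-48745665) was called in all 4 libraries over a common 381 bp. Those in intron 3 (chr9:48723476-48724195 and chr9:48737385-48737916) were called by both GR replicates and 1 E2A replicate, and their best GRE matches had 2 and 1 mismatches. The Klf9 members (chr19:23056739-23057502, chr19:23061177-23061440 and chr19:23068585-23069023) were 72203 to 83724 bp from the Klf9 start site, in introns of a transcript with no gene ID, and 2 of them were called by both GR replicates. The member nearest to Gadd45b lay in Gng7 and was called in 2 libraries.

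Genes of hepatocyte transcription factors had 12 members at 9 of 18 genes with a GR region. Regions in an unnamed transcript nearest to Prox1 (chr1:190204413-190204961) and in intron 9 of Mipol1 nearest to Foxa1 (chr12:57444411-57444816) were called in all 4 libraries, and the Foxa1 window held 2 C/EBP matches and a FOX match. All 3 Nr1i2 members lay in intron 1 (chr16:38279757-38280108, chr16:38285757-38286229 and chr16:38287153-38288244) and were called by both GR replicates and E2A replicate 1. The Hnf4a region in intron 1 (chr2:163539109-163540202) and an intron 1 region of Nr3c1, which encodes GR itself, on chromosome 18 had the same calls. The Nr3c1 window held a GRE with 2 mismatches. Onecut2, of the HNF6 family, was called in 3 libraries and Rxra, the partner of many nuclear receptors, in 2.

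Growth hormone and STAT genes had 7 members at 5 of 16 genes, the 3 of Igf1 among them. Lifr and Il6ra, cytokine receptors, and Prlr, the prolactin receptor, had 1 member each in 3 libraries (chr15:7167954-7168314, chr3:89901423-89901936 and chr15:10202526-10203110), and Stat3 had 1 in 2. Plasma protein genes had 3 members at 3 of 21 genes. Those nearest to Apoa1 (chr9:46215505-46216150, in intron 21 of Sik3) and in Serpina12 were called in all 4 libraries, the latter in the repeated sequence named above, and that of Itih4 (chr14:30888204-30888476) in 3. On the list of helix-loop-helix and Id genes, 15 had a GR region and 1 of these, Mlxipl, had members (6.67%, beside 9.45% of all genes with a GR region), and of 12 coregulators 1, Smarca4, had one. That list does not hold every helix-loop-helix gene. Srebf1, Srebf2, Atoh8, Epas1, Mesp1 and Mnt, for example, are not on it and had members, so the 6.67% depends on which genes were listed. No member lay in or nearest to Tcf3, the E2A-related genes Tcf4 and Tcf12, or the genes of their inhibitors Id1 to Id4. As only 9.45% of all genes with a GR region had a member, its lack at so few genes is not read as a result.

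Markers of other liver cells were counted as well. The share of all genes that have a GR region was not computed, so these counts are not read as low or high. None of the 8 Kupffer cell, 8 stellate cell and 6 B cell markers had a GR region, 1 of 6 cholangiocyte markers had one and no member, and 3 of 8 endothelial markers had one, of which 1 had a member. These counts are too small to set beside the 25.0% of listed genes or the 9.45% of all genes with a GR region that had a member. The member, in intron 67 of Stab2, a scavenger receptor of sinusoidal endothelium, was called by GR replicate 1 and both E2A replicates, and its centre occurs 7 times in the genome.

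**Figure D5:**
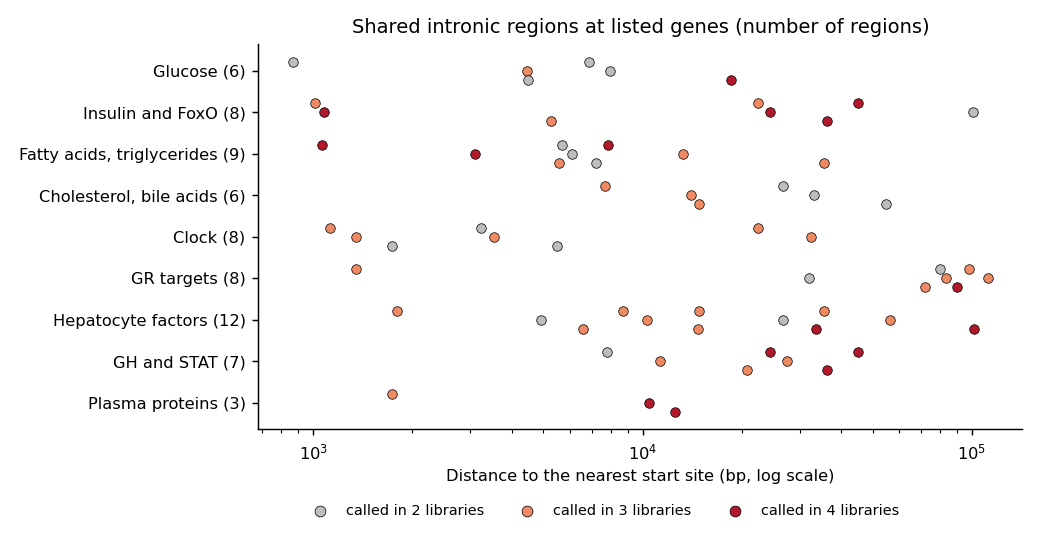
Distance to the nearest start site (x axis, log scale, bp) of each member whose host or nearest gene is on 1 of 9 lists (y axis, number of members in brackets), coloured by the libraries that called it and shifted vertically for legibility. Members are spread from 867 to 111750 bp. Called in all 4 libraries were 4 of 8 insulin and FoxO members, 3 of them at Igf1, beside 92 of all 589 members (15.6%).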

How the data were processed

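Peak lists of 4 ChIP-Seq libraries, 2 of GR and 2 of E2A in wild-type mouse liver, were analysed. Per the methods, the authors mapped the reads to the mm10 genome by BWA-MEM, took out duplicates and pairs without a unique position, reduced each GR library to 18 mio and each E2A library to 22 mio pairs, and used MACS2 on every sample separately. The submitters' processing notes name BWA 0.7.13, Picard 1.119 and MACS2 2.1.0. The lists the authors deposited and that were used here hold peak starts, ends, widths and distances to the nearest start site in bp, with the annotation of each peak. Reads were not analysed here, and the depth behind a peak is unknown from these lists. GR replicate numbers follow the labels, and the deposited lists carry the opposite numbers in their names.

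The members and gene lists were chosen with earlier results of these data known, and lists are described by counts only. Overlap and merging required 1 bp. Motif windows were 200 bp at region centres, since no summits are given, which places motifs less exactly in wide regions. Sequence came from RefSeq GRCm38.p6. For 5742 of 6510 genes (88.2%) the start or end in the lists lay within 100 bp of that of RefSeq. Alternatives left out each library, required 50% overlap or both replicates, kept 1 region per gene, changed the window to 100 or 400 bp or its centre, allowed 1 mismatch or compared within bins of 5% GC content. Regions named are members at listed genes (coordinates for those in 3 or 4 libraries, with exceptions stated), the 10 with the longest stretch common to 4 libraries and genes with 3 or more members. The code was tested on simulated data. Tools were scipy 1.17.1 and statsmodels 0.14.6 for the tests, pysam 0.24.0, samtools 1.23.1 and numba 0.67.0 for sequence, and pandas 2.3.3, numpy 2.4.6 and matplotlib 3.10.9 under Python 3.11.15. Sequences on chromosome 18 are not printed, and some regions at listed genes are counted and not reported here by name. GR ChIP-Seq in E47 mutants was not analysed here.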

Additional observations from a re-analysis of the deposited data

How the results depend on the processing

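The lower share of GRE matches in members than in intronic GR regions without E2A passed the test under all 14 alternatives (odds ratios 0.293 to 0.722, adjusted p from 6.2e-08 to 0.00729), and the E-box CANNTG passed under none of its 13 (0.771 to 1.18). No alternative compared regions of like width. The number of members was 254 to 494 when 1 library was left out, the lowest without E2A replicate 1, and 93 with both replicates of each ChIP required. Motif calls against GR regions without E2A fell from 2 to 1, the GRE, without GR replicate 1, GR replicate 2 or E2A replicate 2, with both replicates of each ChIP, in a 100 bp window and within regions called in both GR replicates. Leaving out 1 library gave 1 to 2 calls. Against E2A regions without GR there were 3 calls with all libraries and 1 to 2 without 1 library, and the 1 call without E2A replicate 1 was none of the 3 but CAGATG (odds ratio 0.399, adjusted exact p = 0.00429). There was 1 call with both replicates of each ChIP or in a 100 bp window, and there were 5 in a 400 bp window. Against flanks the 8 calls became 3 to 7 without 1 library, 2 with both replicates of each ChIP and 5 in a 100 bp window. The share within 10 kb of a start site passed the test without GR replicate 1 (odds ratio 0.749, adjusted exact p = 0.0466; 0.749 to 0.978 over the libraries left out, adjusted p from 0.0466 to 0.863 over all 9 alternatives). The only odds ratio of a called motif that changed its direction was that of CAGCTG against flanks without E2A replicate 1 (0.962, adjusted exact p = 1; 0.0162 to 1 over its alternatives, and odds ratios from 0.962 to 1.63 over the libraries left out). Fewer regions enter when libraries are left out or required together, and the cause of the other changes was not tested. No paired analysis was possible for libraries because no test compared libraries with each other. Members and their own flanks do belong together, but the test against flanks pooled the windows and did not use this pairing. Whether the 8 calls against flanks depend on it was not tested. Without counts or peak heights in these lists, a region missing from a list cannot be told from a region bound more weakly.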
